A study of Mus musculus with 4 samples.

Results

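Mice lacked the growth hormone receptor (GHR), the bile lipid transporter MDR2, or both, and the question here is where the double knockout liver departed from what the single losses would give together. For each gene the difference with GHR loss was taken on a background without MDR2 (double knockout minus MDR2 knockout) and on a background with it (GHR knockout minus wildtype), both as log2 intensity. The first minus the second is called the non-additivity. A value of 0 means that the folds of the single losses multiply, a positive value that the double knockout lay above that product and a negative value that it lay below. Of 19938 genes with an array row carrying exactly 1 gene symbol, 10764 had an intensity of at least 100 on the highest of the 4 arrays and were kept. In 9089 of these all 4 arrays reached 100, so that no value sat near background.

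The study hybridised RNA from whole liver of 8-week-old mice, labelled male in all groups, to whole-transcript arrays. The groups were wildtype, MDR2 knockout, GHR knockout and GHR/MDR2 double knockout, with no treatment named. Each was 1 array of RNA pooled from 3 livers. The labels name neither strain nor the alleles, nor whether a knockout was whole-body or limited to a cell type. With 1 array per genotype the non-additivity uses up all 4 arrays and leaves 0 residual degrees of freedom, so no value below carries a replicate error or a test, and each is a description of these pools.

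GHR is the cell surface receptor through which growth hormone activates the kinase JAK2 and the transcription factor STAT5. In hepatocytes this pathway drives the transcription of IGF1, its carrier Igfals and feedback inhibitors such as Socs2 and Cish, and the pulse pattern of the hormone sets much of the difference between male and female liver. MDR2, encoded by Abcb4, moves phosphatidylcholine across the canalicular membrane into bile, where it shields the bile duct epithelium from bile salts. Without it bile damages the ducts, and the duct epithelium, inflammatory cells and matrix-producing cells around the portal tracts expand.

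The GHR knockout pool stood apart from its label. Xist, the RNA that coats the inactive X chromosome of female cells, was 16 in the wildtype, 18 in the MDR2 knockout, 1400 in the GHR knockout and 17 in the double knockout pool. The Y-linked gene Eif2s3y was 899, 840, 680 and 951 in the same order, Kdm5d was 268, 212, 259 and 265, and Uty was 361, 345, 308 and 368. The library labelled GHR knockout thus carried Xist and Y-linked transcripts together. Every non-additivity uses that pool, so the difference between the double and the MDR2 knockout, which does not, is the value without it. For single genes it can be read from the last and the second of the 4 intensities, which are always given in the order wildtype, MDR2 knockout, GHR knockout, double knockout, and for gene lists its median is given.

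The remaining checks of the labels were limited. Ghr was 4944 in wildtype, 4485 in MDR2 knockout, 1395 in GHR knockout and 935 in double knockout liver, lower in both pools without GHR. Abcb4 was 1120, 663, 1346 and 689, lower in both pools without MDR2. Where the probes lie relative to the deleted parts is not known, so a remaining signal says nothing about the deletion. The class II gene H2-Ea, which some laboratory strains do not express and which was picked after its values were seen, was 299, 2927, 822 and 2854, with a non-additivity of -1.50. Genetic background and genotype cannot be told apart here. Hepatocyte markers named the tissue as liver: the summed intensity of 17 markers was 148126, 138929, 146318 and 137845, with Alb, serum albumin, at 15283, 15242, 13255 and 14956. Median intensity was 94 to 105 over the 4 arrays, and arrays correlated at a Pearson r of 0.970 to 0.988.

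The promoters of 4 genes are shown. Asns, Thrsp and Cyp2f2 were chosen because their transcripts lay far from additivity, though others lay further, and Igf1 as the best known output of the receptor. Fgl1, Fabp5, Ccn2 and Sox9 were also chosen, but the promoter reference held no entry for them. The windows are from RefSeq on GRCm38.p6 and run from 250 bases before to 50 bases after the start site, 5′ to 3′ on the gene's strand. Asns (chr6:7693160-7693459, minus strand) encodes asparagine synthetase and had the highest non-additivity of all, 4.36. Thrsp (chr7:97417501-97417800, minus strand), a regulator of lipogenesis, had the lowest among genes with all arrays at 100, -4.03. Cyp2f2 (chr7:27119705-27120004, plus strand), a cytochrome P450 of periportal hepatocytes, followed at -3.47, and Igf1 (chr10:87860861-87861160, plus strand) was at -1.98. Capitals mark the matches to the motifs searched.
Asns: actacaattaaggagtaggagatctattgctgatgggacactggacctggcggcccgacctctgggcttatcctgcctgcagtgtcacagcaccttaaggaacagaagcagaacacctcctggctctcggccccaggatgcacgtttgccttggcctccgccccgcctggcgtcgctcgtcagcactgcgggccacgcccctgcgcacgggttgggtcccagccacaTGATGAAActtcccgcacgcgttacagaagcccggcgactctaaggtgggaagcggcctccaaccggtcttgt
Thrsp: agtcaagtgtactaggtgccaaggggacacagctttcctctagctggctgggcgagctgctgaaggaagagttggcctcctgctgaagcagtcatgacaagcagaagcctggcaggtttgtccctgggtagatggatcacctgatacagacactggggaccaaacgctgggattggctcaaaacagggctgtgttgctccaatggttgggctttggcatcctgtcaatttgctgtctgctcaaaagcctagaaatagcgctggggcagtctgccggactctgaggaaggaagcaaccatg
Cyp2f2: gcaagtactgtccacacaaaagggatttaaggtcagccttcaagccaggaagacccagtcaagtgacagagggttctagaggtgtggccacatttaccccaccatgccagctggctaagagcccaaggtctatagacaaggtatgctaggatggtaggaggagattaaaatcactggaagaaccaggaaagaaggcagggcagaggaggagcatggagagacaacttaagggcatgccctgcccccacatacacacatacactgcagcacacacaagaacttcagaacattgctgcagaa
Igf1: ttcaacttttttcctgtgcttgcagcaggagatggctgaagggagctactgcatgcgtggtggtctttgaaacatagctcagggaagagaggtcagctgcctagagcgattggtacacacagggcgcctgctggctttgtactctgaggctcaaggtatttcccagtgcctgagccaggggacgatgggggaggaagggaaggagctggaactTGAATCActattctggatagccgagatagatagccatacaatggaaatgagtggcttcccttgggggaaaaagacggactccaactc

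5 motifs were searched on both strands, overlaps between motifs allowed: TTCNNNGAA for STAT factors, GGAATG for TEAD factors, TGANTCA for AP-1, TTGCNNAA for C/EBP and, added after Asns was seen at the top, TGATGNAA, the CARE element bound by ATF4. Among these 4 windows Asns held a CARE match starting at position -23 from the start site and Igf1 an AP-1 match at position -37. Windows of Thrsp and Cyp2f2 held no match, which says only that these letters are not in them. An AP-1 match stood in 12.3% of the 154 promoters of genes at least 2-fold above additivity, in 10.9% of the 202 promoters of genes at least 2-fold below, in 5.26% of the promoters of all genes that passed the level and in 7.81% of all 32851 promoters. The C/EBP shares were 13.6%, 16.3%, 8.58% and 10.8% in the same order. STAT matches stood in 6.49%, 8.42%, 6.61% and 8.30%, TEAD matches in 11.7%, 14.4%, 12.2% and 14.7%, and CARE matches in 1.95%, 3.96%, 2.21% and 3.97%. A match is a stretch of letters and no measured binding site.

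Most genes lay close to additivity. The median non-additivity was -0.03 with a robust SD of 0.32 (log2) over the genes that passed the level, and 88.0% of them were within 1.5-fold of the multiplied single folds. At least 2-fold above additivity were 191 genes, 1.77% of those tested, and at least 2-fold below were 206, or 1.91%. Where all 4 arrays reached 100, 67 genes (0.737%) lay above and 146 (1.61%) below. Of the genes at least 2-fold from additivity, 31.5% thus lay above where all arrays reached 100, and 48.1% without that requirement. The genes above additivity were often low in the other pools: 124 of the 191 had an array under 100, against 60 of the 206. Among all 10764 genes kept 1675 had one, a smaller share than in either group. With the genes split into 10 equal bins by mean intensity, the lowest bin held 71 above and 16 below, and the highest 1 above and 26 below. The robust SD was 0.40 in the lowest bin and 0.30 to 0.34 in the others.

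In 139 of the 191 genes above and 132 of the 206 below, the difference with GHR loss was larger without MDR2 than with it. Many of the 191 entered only through the pool where they were high, and where all arrays reached 100 the counts were 36 of 67 and 98 of 146. Between the double and the MDR2 knockout alone, with the Xist-positive pool left out, 113 of the 191 were at least 2-fold apart and 33 less than 1.5-fold, and of the 206 these counts were 99 and 52. With all arrays at 100, 21 of the 67 above were at least 2-fold apart and 23 less than 1.5-fold, and of the 146 below 67 and 37. None of these counts was made over all genes kept, so they have no background share beside them and no trend is read from them. Known sex-biased or sex-linked genes made up 7 of the 191 (3.66%) and 23 of the 206 (11.2%), against 62 of all 10764 genes kept (0.576%). Igf1, Socs2, Egfr, C8a and Hamp2, described with other lists below, are also on the sex lists. Genes whose highest array stood exactly at 100 had values from -0.68 to 0.82 and those at 99, just outside, from -0.73 to 1.03.

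**Figure D1:**
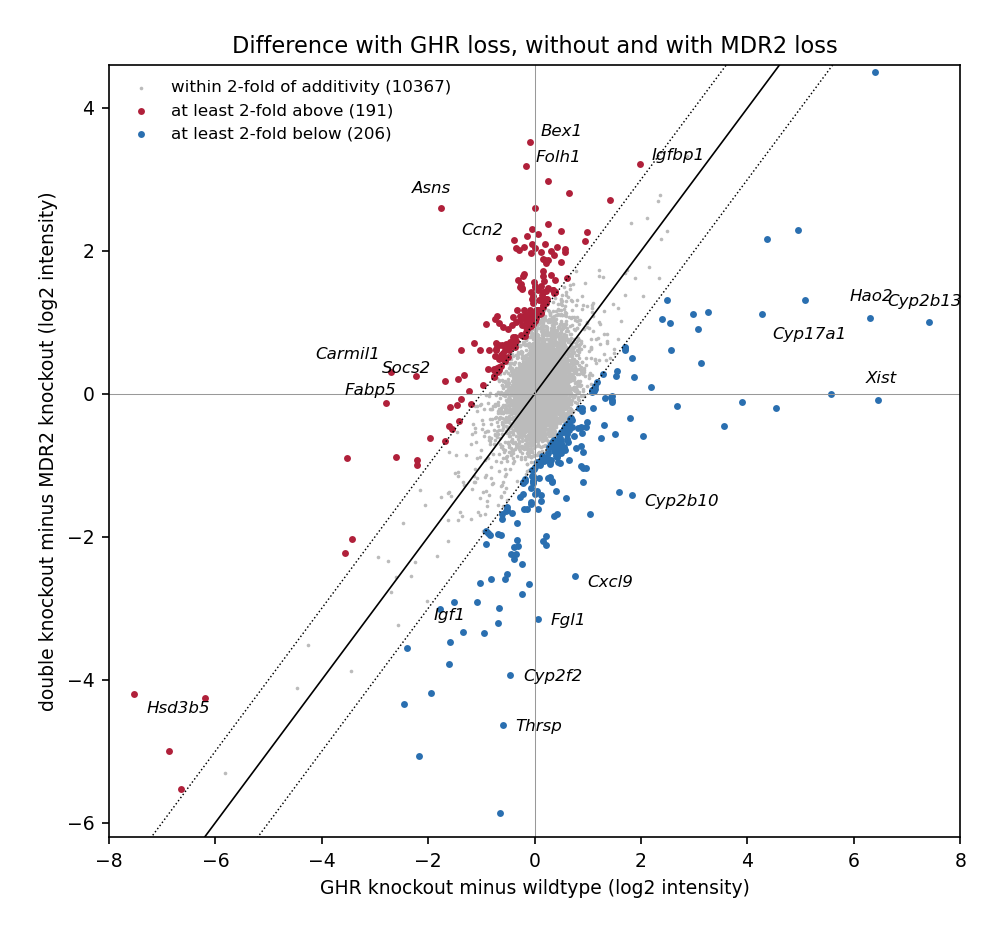
Each point is a gene with the highest array at least 100, placed by the log2 difference between GHR knockout and wildtype (horizontal) and between double and MDR2 knockout (vertical), 1 array per genotype. The solid line is additivity and the dotted lines 2-fold from it, with 191 genes above and 206 below; Bex1, Folh1 and Ccn2 sit near 0 on the horizontal axis and high on the vertical one, Fgl1 and Cyp2f2 near 0 and low, while Xist, Cyp2b13 and Hao2 lie far to the right.

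The shape of the departures was read first from which pool stood apart. A gene was put in a single-pool class where 3 arrays lay within 1.5-fold of each other and the fourth was at least 2-fold outside them. The double knockout alone was high in 49 genes and alone low in 34, the GHR knockout alone high in 14 and low in 4, wildtype alone high in 6 and low in 3, and the MDR2 knockout alone high in 1 and low in 1. On the sex-biased or sex-linked lists were 0 of the 49, 3 of the 34, 4 of the 14 and 2 of the 4, beside the 0.576% of all genes kept. Among the 34 genes low in the double knockout 31 had all arrays at 100, against 11 of the 49 high ones and 9089 of the 10764 genes kept. A gene high in 1 pool can pass the level through that pool alone, so the filter itself favours this contrast.

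**Figure D2:**
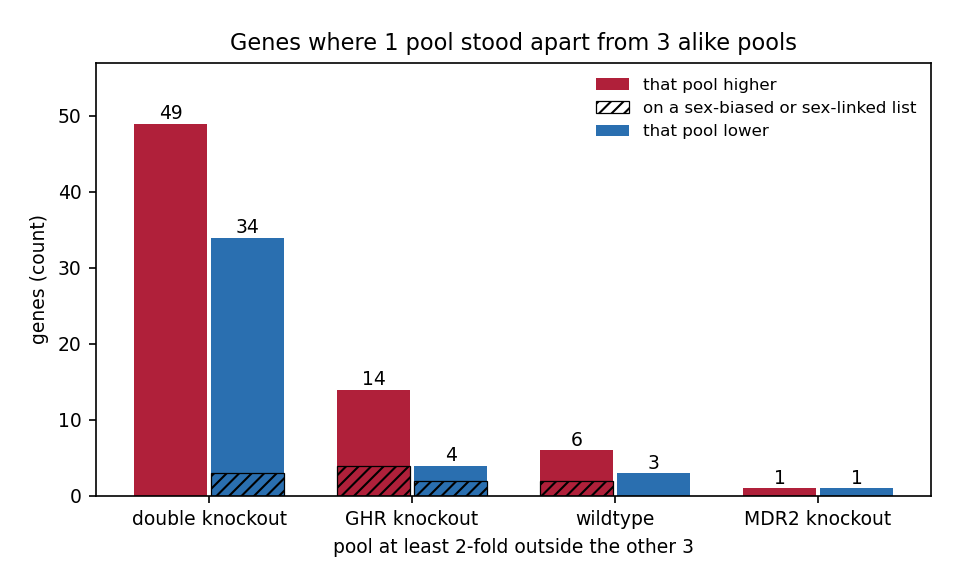
Bars count the genes in which 1 of the 4 pools was at least 2-fold higher (red) or lower (blue) than the other 3, which lay within 1.5-fold of each other; hatching marks members of the sex-biased or sex-linked lists. The double knockout has 49 and 34 genes, the GHR knockout 14 and 4, wildtype 6 and 3 and the MDR2 knockout 1 and 1.

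Of the genes low in the double knockout alone, Cyp2f2, which is on the male-biased list, had the largest departure. It was 11138 in wildtype, 9594 in MDR2 knockout, 8133 in GHR knockout and 631 in double knockout liver, where multiplied folds would give 7006. The 3 other pools were alike and the double knockout was 15.2-fold below the MDR2 knockout. Fgl1, a secreted hepatokine of the fibrinogen family, was 3461, 3112, 3634 and 351 against 3268 under additivity. Mbl2, a mannose-binding lectin that starts the lectin pathway of complement, was 1543, 1254, 1438 and 199 against 1169. Both were high in 3 pools and low in 1, with a non-additivity of -3.22 and -2.55.

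Other members of that class had the same profile. Mfsd2a, a carrier of lysophospholipids, was 560, 695, 474 and 100 (-2.56). Slco2b1, an organic anion uptake carrier, was 766, 622, 884 and 157 (-2.19), and Apcs, the serum amyloid P component, was 1537, 1189, 1303 and 229 (-2.14). For each of them the lowest of the 3 other pools exceeded the double knockout several fold. Glucose and nitrogen enzymes were further members with smaller values. G6pc, the glucose-6-phosphatase that releases glucose, was 4661, 4743, 3488 and 1487 (-1.26), and Pklr, liver pyruvate kinase, 2433, 1905, 2379 and 815 (-1.19). Glul, the glutamine synthetase of pericentral hepatocytes, was 3781, 4363, 3705 and 1845 (-1.21), so that genes of both ends of the lobule were among them. In such bulk samples fewer cells of a type and less RNA per cell cannot be told apart. Summed hepatocyte markers were 137845 in the double knockout, where additivity would give 137233, and abundant transcripts such as Alb weigh most in that sum.

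Outside the single-pool classes, genes at least 2-fold from additivity were sorted by their differences with GHR loss. The largest group, 110 genes (1.02% of genes kept), met none of the patterns set. In 29 genes (0.269%), 13 of them on the sex lists, the differences had 1 direction and the one without MDR2 was the smaller. In 18 (0.167%) the difference was at least 2-fold with MDR2 intact and under 1.5-fold without it. In 31 genes (0.288%) the differences also had 1 direction on both backgrounds. Each difference was at least 1.5-fold, the one without MDR2 was the larger, and 25 of the 31 lay below additivity. Thrsp was 3449 in wildtype, 2796 in MDR2 knockout, 2274 in GHR knockout and 113 in double knockout liver, 16.3-fold below the 1844 of multiplied folds. No other pool was under 2274, and the double knockout was 24.7-fold under the MDR2 knockout. Mup3, a major urinary protein that carries pheromones, was 8541, 7520, 2209 and 415 (-2.23), and Ces3b, a carboxylesterase, 4992, 3258, 1105 and 97 (-2.89). Those 2 were already lower with GHR loss alone and were lower again in the double knockout. On the linear scale, where differences and not folds add, Ces3b and Sult2a8 turned to the other side of additivity. Urad, a decarboxylase of urate breakdown, was 1076, 1025, 670 and 111 (-2.52), the sulfotransferase Sult2a8 3605, 1781, 1861 and 176 (-2.39) and Paqr9, a membrane protein of the adiponectin receptor family, 1835, 797, 1148 and 100 (-2.32). Paqr9 was at -10 from additivity on the linear scale, and so close to it.

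**Figure D3:**
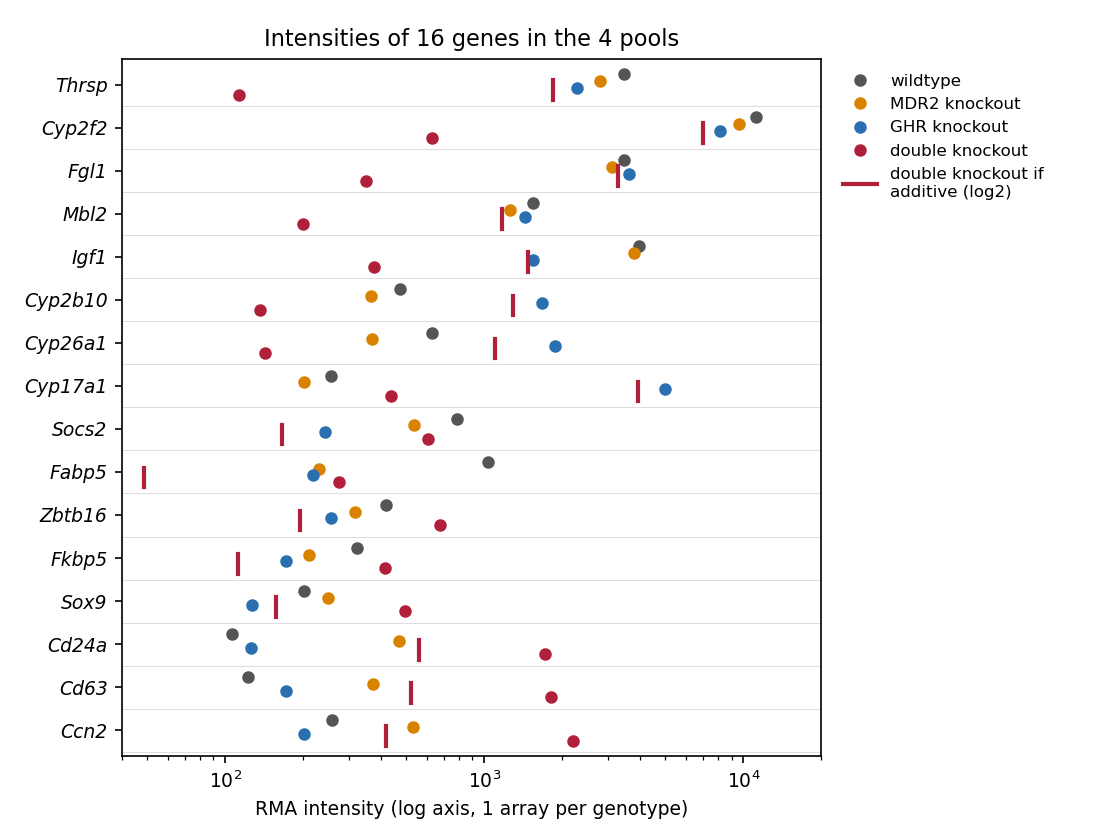
Points give the RMA intensity of 16 genes on a log axis in the wildtype, MDR2 knockout, GHR knockout and double knockout pools, 1 array each, and the red bar the double knockout intensity that multiplied single folds would give. For Thrsp, Cyp2f2, Fgl1 and Mbl2 the double knockout point lies far left of the bar and of the other pools, for Ccn2, Cd63 and Cd24a far right, and for Socs2 the GHR knockout point is alone on the left.

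Genes of the growth hormone and IGF axis departed in both directions. Of 21 members, 4 were at least 1.5-fold above additivity and 3 below, with a median of -0.28, where all 19938 genes had a median of -0.05, 569 above (2.85%) and 722 below (3.62%). List counts here and below require an array of at least 100, while medians are over all measured members. The 569 and 722 all come from the 10764 genes that passed the level, 88.0% of which were within 1.5-fold of additivity. Most lists hold mainly members that passed, so the shares over all 19938 genes are lower than those among genes that could be counted. Without the GHR knockout pool the median of the growth hormone and IGF list was 0.07, and that over all genes 0.00. Igf1 was 3951 in wildtype, 3766 in MDR2 knockout, 1546 in GHR knockout and 374 in double knockout liver, where multiplied folds give 1474. It was lower in both pools without GHR and lowest without both genes. Igfals, which holds IGF1 in its circulating complex, was 1188, 856, 395 and 77 (-1.89), the same order as Igf1, though on the linear scale it turned just above additivity.

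Socs2, a STAT5 target that inhibits the receptor, took the other course. Its intensity was 782, 535, 243 and 605, against an additive 166 (1.86), so that it was low only in the GHR knockout pool and the double knockout was at 1.13-fold of the MDR2 knockout. Cish, another STAT5-induced inhibitor, was 352, 320, 154 and 95 (-0.56), and Egfr, the EGF receptor, 4315, 3596, 558 and 741 (0.67). Those 2 were low in both pools without GHR. The IGF binding proteins Igfbp1 and Igfbp2, which restrain IGF1 in the circulation, were highest without both genes: Igfbp1 was 308, 353, 1208 and 3284 (1.25) and Igfbp2 was 691, 549, 1360 and 2628 (1.28). Onecut1, a hepatocyte and biliary transcription factor, was 1150, 436, 248 and 218 where multiplied folds give 94 (1.21), lower after either single loss and little lower after both.

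Sex-biased genes held many of the most extreme values. Of 33 female-biased genes measured, 18 were at least 1.5-fold below additivity and 2 above, with a median of -0.86. Without the GHR knockout pool, as the difference between double and MDR2 knockout, their median was 1.0, above that of all genes. The P450 Cyp2b13 was 15, 14, 2545 and 28 (-6.41), Hao2, an oxidase of 2-hydroxy acids, 19, 23, 1507 and 48 (-5.25), and the carrier Slc22a26 30, 24, 700 and 21 (-4.74). These were high only in the GHR knockout pool, the one with Xist at 1400 beside Y-linked transcripts. Whether their values are related to that was not tested. Cyp17a1, a steroid hydroxylase, was 257, 202, 4980 and 438 (-3.16), and the fatty acid hydroxylase Cyp4a14 153, 40, 4748 and 196 (-2.66). Both were also higher in the double than in the MDR2 knockout, by 2.17-fold and 4.90-fold.

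Of 28 male-biased genes 14 were at least 1.5-fold above and 6 below additivity, with a median of 0.59, and the double minus MDR2 knockout median was -1.73. Hsd3b5, a male steroid dehydrogenase, was 3877, 367, 21 and 20 (3.33), and Elovl3, a fatty acid elongase, was 2806, 1103, 28 and 24 (1.12). Both pools without GHR were near the lowest intensities of the arrays, and the additive expectation for Hsd3b5 in the double knockout was 1.99, where the lowest intensity in the table was 6. Susd4, a complement regulator, was 808, 360, 70 and 193 (2.63), Cyp4a12b was 4464, 4977, 61 and 260 (1.93) and Cyp2d9 was 3681, 3785, 1378 and 2903 (1.03). For these 3 the double knockout lay above the GHR knockout, and on the linear scale Cyp4a12b turned below additivity. The sulfotransferase Sult2a3, on neither list, was 14, 14, 667 and 14 (-5.57), high in the GHR knockout pool alone. So was Cyp3a16, a female-biased P450, at 14, 14, 209 and 13 (-4.01).

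In 34 genes the difference with GHR loss had opposite signs on the 2 backgrounds, at least 1.5-fold each way, 17 above and 17 below additivity. Asns was 222 in wildtype, 200 in MDR2 knockout, 66 in GHR knockout and 1219 in double knockout liver, 20.5-fold above the additive 59.5. It was lowest without GHR alone and highest without both. The list of ER stress and amino acid response genes did not share its course: 1 of 25 members, Asns itself, was at least 1.5-fold above with an array at 100, 3 were below, and the median was -0.05, with -0.18 between double and MDR2 knockout. Trib3, an ATF4 target, was 106, 106, 162 and 92 (-0.82), and Phgdh, the first enzyme of serine synthesis, was 80, 69, 38 and 78, under the level on all arrays.

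Cyp2b10, the usual target of the drug-sensing receptor CAR, was 472, 364, 1677 and 136 (-3.25), and Cyp26a1, which degrades retinoic acid, 629, 369, 1877 and 143 (-2.94). Both were highest with GHR loss alone and lowest in the double knockout. Cyp2b10 is also on the sex-biased lists, and the GHR knockout pool was the one with Xist at 1400. The list of 15 CAR and PXR targets, Cyp2b10 included, had 3 members above, 2 below and a median of -0.11 (-0.03 between double and MDR2 knockout). Nr1d1, the clock repressor REV-ERB alpha, was 1042, 1136, 2030 and 556 (-1.99), and Cxcl9, a chemokine induced by interferon gamma, was 216, 470, 367 and 80 (-3.32). In the clock list (median -0.05, and -0.03 between double and MDR2 knockout) 2 of 17 members were above and 3 below, among them Ciart, a repressor of the clock, at 419, 257, 153 and 231 (1.30) and Dbp, a clock-driven activator, at 468, 547, 740 and 517 (-0.74).

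Another pair, both glucocorticoid-induced, ran the other way. Fkbp5, a chaperone of the glucocorticoid receptor, was 322, 211, 171 and 415 (1.89) and Zbtb16, a transcription factor, 417, 317, 255 and 677 (1.80), each highest in the double and lowest in the GHR knockout. A list of glucocorticoid-induced genes, added after these values were seen and therefore no independent evidence, had 4 of 16 members above, none below and a median of 0.30 (0.32 between double and MDR2 knockout).

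The genes high in the double knockout were led by transcripts near the bottom of the scale elsewhere. Bex1, a neuronal and fetal adaptor protein, was 18, 20, 17 and 229 (3.60). Folh1, a folate hydrolase, was 27, 33, 24 and 301 (3.36), Scn7a, a sodium channel, 32, 47, 38 and 371 (2.73) and Adgrg7, an adhesion receptor, 24, 31, 24 and 188 (2.60). In these 4 no single knockout came near 100, so their additive expectation was also near background. Fetal liver and tumour markers as a list had 9 of 27 members above, 1 below and a median of 0.10, with 0.44 between double and MDR2 knockout. The median was 0.66 over the 18 members that passed the level, some of them only through the double knockout. Afp, alpha-fetoprotein, was 58, 55, 61 and 259 (2.16), and Igf2bp3, a fetal RNA-binding protein, 46, 38, 72 and 267 (2.17). The 9 also held Cd24a, a surface protein of progenitor and duct cells, at 106, 470, 126 and 1722 (1.62) and Tff3, a mucosal trefoil peptide, at 102, 200, 103 and 571, 2.83-fold above additivity.

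A further 87 genes outside the single-pool classes were at least 2-fold from additivity with another pattern. Their difference with GHR loss was at least 2-fold where MDR2 was lost and under 1.5-fold where it was intact. The 87 were 0.808% of all genes kept, and 64 of them lay above additivity. None was on a sex list, but with 0.576% of all genes kept on one, that does not set the 87 apart. Markers of bile duct epithelium were among them. Of 19 cholangiocyte markers 12 were at least 1.5-fold above and 2 below, with a median of 0.73 and one of 0.99 between double and MDR2 knockout. All arrays reached 100 in 5 of the 19, so most values here come from genes near background in some pools. Mmp7, a matrix protease of duct epithelium, was 71, 113, 54 and 502 (2.55), Tspan8, a tetraspanin, 34, 66, 33 and 281 (2.13) and Cftr, the chloride channel of bile ducts, 23, 36, 22 and 141 (2.03). Epcam, an epithelial adhesion molecule, was 48, 113, 40 and 329 (1.80). All 4 were highest with both genes lost and under 100 in the wildtype and GHR knockout pools, Cftr and Tspan8 also in the MDR2 knockout, so those 2 passed the level only through the double knockout.

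Duct keratins had smaller values, Krt7 at 77, 122, 71 and 266 (1.24) and Krt19 at 71, 122, 79 and 214 (0.66). Sox9, the transcription factor of duct cells and their progenitors, was 202, 250, 127 and 495 (1.66), low with GHR loss alone. The summed intensity of the 19 markers was 3126, 4800, 3422 and 7466, where multiplied folds give 5255 (0.51). The part of duct cell number in the values of single genes was not tested. In the list of Notch and ductal transcription factors 5 of 18 were above and none below, with a median of 0.13 that was -0.003 over members passing the level, and 0.16 between double and MDR2 knockout. Sox4, a progenitor transcription factor, was 64, 81, 51 and 183, 2.84-fold above additivity, and the Notch ligand Jag1 103, 128, 97 and 254 (1.08). Epithelial claudins followed in part: Cldn6 was 70, 146, 61 and 468 (1.88) and Cldn4 was 75, 139, 71 and 314 (1.25), while the list of tight junction genes had 3 of 19 above, 2 below and a median of -0.18 (0.24 between double and MDR2 knockout).

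Several matrix-inducing signals and proteases lay above additivity. Ccn2, a matricellular protein induced by TGF beta and YAP, was 258, 532, 202 and 2197, against an additive 417 (2.40). It was higher than wildtype with MDR2 loss alone, not with GHR loss alone, and was 4.13-fold higher in the double than in the MDR2 knockout. In the list of TGF beta and YAP targets 9 of 24 were above, 1 below, with a median of 0.46 (0.59 between double and MDR2 knockout), among them Ankrd1, a YAP target, at 32, 83, 36 and 206 (1.14), Skil, a SMAD repressor, at 148, 145, 107 and 240 (1.20) and the receptor Tgfbr1 at 421, 499, 364 and 825 (0.94). Of 21 matrix remodelling genes 6 were above and 1 below, with a median of 0.19 (0.61 between double and MDR2 knockout), and Mmp12, the macrophage elastase, was 51, 133, 42 and 374 (1.77).

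Collagens stayed near additivity. Of 31 collagen and matrix genes 2 were at least 1.5-fold above and none below, with a median of -0.02 that turned above 0 under cyclic loess and both centrings, and one of 0.09 between double and MDR2 knockout. Col1a1 was 188, 373, 159 and 423 (0.42), Col1a2 was 182, 403, 180 and 409 (0.04) and Col3a1 was 180, 353, 166 and 311 (-0.07). These were higher in both pools without MDR2 and within 1.18-fold across GHR loss on either background. The exceptions were the proteoglycans Vcan, at 23, 38, 30 and 115 (1.21), and Lum, at 199, 417, 241 and 929 (0.88). Acta2, the smooth muscle actin of myofibroblasts, was 150, 324, 216 and 223, below an additive 467 (-1.06), and the stellate list had 1 of 20 above and 3 below, with Lrat, which stores retinol, at 505, 608, 766 and 393 (-1.23). Their median was -0.10, and 0.09 between double and MDR2 knockout. The summed stellate markers were 5103, 6556, 6701 and 8309 against 8609 under additivity (-0.05).

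Cd63, a tetraspanin of lysosomes and exosomes, was 122, 371, 171 and 1804 (1.79), and Rragd, a GTPase that signals lysosomal amino acids, 53, 180, 51 and 894 (2.37). Pygb, brain glycogen phosphorylase, was 170, 311, 172 and 880 (1.48) and the protease inhibitor Serpinb6b 103, 294, 102 and 870 (1.58). All 4 were higher with MDR2 loss alone and several fold higher again in the double knockout, though Rragd, Pygb and Serpinb6b were within 1.04-fold of wildtype in the GHR knockout.

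Macrophage genes went both ways. The list as a whole had 8 of 24 above, 4 below and a median of 0.25 (0.56 between double and MDR2 knockout), and its summed intensity was 6807, 14592, 9402 and 19927, against an additive 20155 (-0.02). The 3 highest were Cx3cr1, Itgax and Lyz1: Cx3cr1, a chemokine receptor of monocytes, was 72, 168, 62 and 525 (1.86), Itgax, an integrin of dendritic cells and macrophages, 50, 80, 49 and 172 (1.13) and Lyz1, a lysozyme, 55, 120, 56 and 251 (1.04). The lowest was Clec4f, a lectin of resident Kupffer cells, at 677, 885, 993 and 628 (-1.05). Of 29 chemokines and cytokines 9 were above and 2 below, with a median of 0.20 (0.43 between double and MDR2 knockout). The monocyte attractant Ccl2 was 63, 290, 63 and 1192 (2.04), Ccl20 was 51, 96, 59 and 260 (1.23) and Cxcl2, which attracts neutrophils, 29, 49, 22 and 103 (1.47). GHR loss on its own left Ccl2 at its wildtype level, and on the MDR2-null background it was 4.11-fold higher.

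Interferon-induced genes lay on the other side. Of 22 members 10 were at least 1.5-fold below and none above, with a median of -0.50 (-0.38 between double and MDR2 knockout). Besides Cxcl9, Gbp3, an interferon-induced GTPase, was 100, 146, 195 and 106 (-1.43), Iigp1, another, 1219, 978, 789 and 249 (-1.35) and Ifit3, an antiviral protein, 303, 283, 268 and 124 (-1.01). Iigp1 and Ifit3 were lowest in the double knockout and Gbp3 close to its wildtype level. Zbp1, a sensor of nucleic acids, was high in the MDR2 knockout alone, at 152, 318, 125 and 117 (-1.16). Sinusoidal endothelial genes had 6 of 20 below and 1 above, with a median of -0.48 (-0.12 between double and MDR2 knockout) and a summed intensity of 8564, 9193, 10780 and 8869 against an additive 11572; Kdr, a VEGF receptor, was 431, 408, 540 and 313 (-0.71), while Cd34 was 87, 151, 98 and 314 (0.88). Lymphocyte and neutrophil lists were mostly near background, with 14 of 18 and 10 of 12 members under 100 on every array.

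All 19 cholesterol synthesis genes had a negative value, 5 of them at least 1.5-fold, with a median of -0.46 (-0.36 between double and MDR2 knockout). The mevalonate decarboxylase Mvd was 451, 480, 562 and 253 (-1.24), Tm7sf2, a sterol reductase, 2030, 1481, 2238 and 812 (-1.01), and Fdps, which makes farnesyl diphosphate, 2735, 2829, 2517 and 1627 (-0.68). For these the double knockout was the lowest pool, and between double and MDR2 knockout they differed by 1.90-fold, 1.82-fold and 1.74-fold. Of 22 fatty acid synthesis genes 8 were below and 1, Elovl3, above, with a median of -0.40 (-0.36 between double and MDR2 knockout). Besides Thrsp, Mlxipl, the carbohydrate-sensing factor ChREBP, was 1345, 1117, 1587 and 608 (-1.12) and Acacb, an acetyl-CoA carboxylase, 635, 285, 547 and 120 (-1.03).

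Lipid uptake and droplet genes had 3 of 19 above and 3 below, with a median of -0.05 (0.07 between double and MDR2 knockout). Cd36, a fatty acid transporter, was 379, 910, 2232 and 1394 against an additive 5359 (-1.94), and Vldlr, a lipoprotein receptor, was 99, 99, 775 and 215 (-1.85). Cd36 and Vldlr are also on the sex-biased lists and were highest in the GHR knockout, the pool with Xist. Fabp5, a fatty acid binding protein, was 1033, 230, 219 and 274, high in wildtype alone, where multiplied folds would give 48.8 (2.49). Its 3 knockout pools lay between 219 and 274. The reverse shape belonged to Gdpd3, a lysophospholipase D, at 29, 407, 342 and 299 (-4.00) and Slc16a5, a carrier, at 142, 369, 521 and 436 (-1.63), low in wildtype alone. The PPAR alpha list had 5 of 25 below and none above, with a median of -0.27 that was 0.12 between double and MDR2 knockout, and Vnn1, a pantetheinase, was 462, 727, 1504 and 1140 (-1.05).

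Of 16 bile acid synthesis genes 3 were at least 1.5-fold below and none above, with a median of -0.21 (-0.26 between double and MDR2 knockout). Cyp8b1, which makes cholic acid, was 1666, 1229, 1036 and 316 (-1.27), while Cyp7a1, the rate-limiting enzyme, was 2703, 3732, 2621 and 2735 (-0.40). Among 19 transporters 3 were above and 3 below, with a median of -0.09 (0.07 between double and MDR2 knockout). The uptake carrier Slc10a1 was 8532, 6069, 8455 and 3144 (-0.94), the export pump Abcb11 was 2914, 2557, 4140 and 2723 (-0.42), and Slc10a2, the bile acid carrier of cholangiocytes and ileum, 469, 748, 77 and 406 (1.73). Slc10a2 was low in the GHR knockout alone to an extent that the double knockout did not share. Bile acid sensing genes had 2 of 11 below, none above and a median of -0.47 (-0.25 between double and MDR2 knockout), with the FGF co-receptor Klb at 610, 316, 1059 and 329 (-0.74).

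Ccnd1, cyclin D1, was 280, 1456, 997 and 2065, above wildtype in every knockout but under the 5184 of multiplied folds (-1.33). On the linear scale, where differences add, Ccnd1 was at -108 from additivity, and so close to it. Of 29 cell cycle genes none was above and 1, Ccnd1, below with an array at 100. Acute phase genes had 2 of 26 above and 5 below, with Saa1, serum amyloid A, at 1181, 1631, 224 and 139 (-1.15) and Saa3, its macrophage form, at 619, 332, 158 and 217 (1.36). The hepatocyte markers had 0 of 17 above or below and a median of -0.04, and the respiratory chain 0 of 24 and a median of -0.08.

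Of 16 hepatocyte transcription factors measured 2 were at least 1.5-fold above and 2 below, with a median of -0.34 (-0.15 between double and MDR2 knockout). Foxa3, a pioneer factor of hepatocytes, was 858, 847, 740 and 1369 (0.91), alone with Onecut1 on the high side. Cebpa, which drives metabolic genes of the mature hepatocyte, was 2116, 1707, 2490 and 1282 (-0.65) and Bcl6, a repressor regulated by growth hormone, 251, 426, 348 and 326 (-0.86). Hnf4a, the central factor of hepatocyte identity, was 2833, 3279, 3242 and 2959 (-0.34), so that its 4 pools lay close together.

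Among 16 apolipoproteins and lipases 3 were below and none above, with a median of -0.24 (-0.09 between double and MDR2 knockout). Apoa4, carried on chylomicrons and HDL, was 3983, 4119, 2227 and 1053 (-1.13), lower in both pools without GHR and lowest in the double knockout. Of 16 genes of the urea cycle and amino acid breakdown 4 were below and none above (median -0.21, and -0.06 between double and MDR2 knockout), with Hal, which breaks down histidine, at 3840, 2381, 3766 and 1305 (-0.84). The zonation list held 6 of 17 below and 1 above (median -0.21, and -0.08 between double and MDR2 knockout), and besides Cyp2f2, Glul and Hal its members below included Pigr, the receptor that carries IgA into bile, at 3619, 3668, 4807 and 2005 (-1.28). Pigr was highest in the GHR knockout and lowest in the double knockout. Glucose and glycogen genes went both ways, 3 of 18 above and 4 below (median -0.05, and 0.05 between double and MDR2 knockout).

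Complement and coagulation factors had 2 of 28 above and 3 below, with a median of -0.16 (-0.34 between double and MDR2 knockout). The membrane attack components C8a and C9 were lower without GHR and less so in the double knockout: C8a was 3984, 4602, 713 and 1310 (0.67) and C9 was 4715, 5115, 1690 and 2820 (0.62). C8a turned below additivity on the linear scale. C8g, the gamma chain of the same complex, took another course at 6351, 5129, 6095 and 2792 (-0.82). In the hepcidin and iron list 1 of 17 was above and none below (median 0.01, which was -0.002 without the members on sex lists). That member was not Hamp2, a hepcidin, which was 588, 142, 2528 and 782 (0.36), highest in the GHR knockout, lowest in the MDR2 knockout and below additivity on the linear scale. It was Id1, a target of BMP signalling, at 168, 176, 275 and 435 (0.59).

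The EGF receptor family had 2 of 10 members above and none below. Besides Egfr these were its feedback inhibitor Errfi1, at 7305, 7947, 4076 and 6830 (0.62), low in the GHR knockout pool. The list median of -0.01 turned above 0 under cyclic loess, both centrings and the added offset. Erbb3, the partner receptor without kinase activity, was 1588, 1409, 1795 and 1129 (-0.50). Of 26 antioxidant genes 2 were above and 1 below, with a median near 0 (-0.004) that turned above 0 under both centrings. Gpx3, a secreted glutathione peroxidase, was 101, 138, 98 and 346 (1.37), high in the double knockout alone. Nox4, a hydrogen peroxide-producing oxidase, was 853, 610, 423 and 552 (0.87) and the extracellular superoxide dismutase Sod3 188, 233, 274 and 166 (-1.03).

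Of 18 p53 and apoptosis genes 1 was above and 3 below (median 0.04, and 0.15 between double and MDR2 knockout), with Btg2, an antiproliferative gene, at 233, 332, 224 and 718 (1.17) and Gadd45g, a stress sensor, at 241, 247, 150 and 84 (-0.87). Annexins and S100 proteins had 3 of 20 above and 1 below (median 0.09). Anxa13, an epithelial annexin, was 51, 82, 57 and 257 (1.49) and Anxa3 was 111, 280, 151 and 637 (0.74), both highest in the double knockout. Antigen presentation by MHC class II had 2 of 8 below and none above (median -0.12, -0.52 over the 5 members that passed the level, and 0.09 between double and MDR2 knockout). Cd74, the invariant chain, was 438, 1986, 764 and 2153 (-0.69) and H2-Eb1 was 426, 1355, 668 and 1266 (-0.75), both high in the 2 pools without MDR2, as H2-Ea was. For lists where it is not given beside the count, the median between double and MDR2 knockout was -0.04 for cell cycle genes, -0.05 for acute phase genes, 0.23 for annexins and S100 proteins, -0.01 for the EGF receptor family, -0.04 for hepcidins and iron, 0.12 for antioxidant genes, -0.05 for hepatocyte markers and 0.04 for the respiratory chain.

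**Figure D4:**
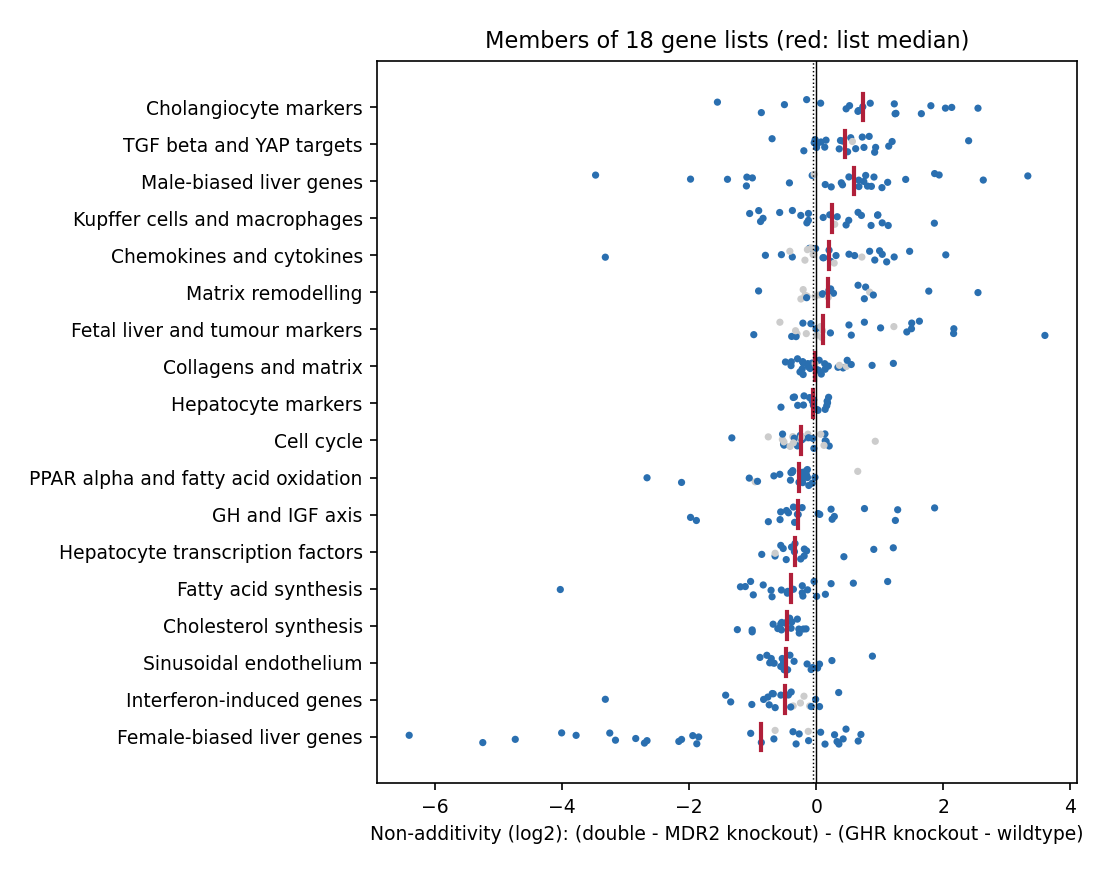
Each point is the non-additivity (log2) of 1 member of a gene list, blue where its highest array reached 100 and grey where it did not; red bars are list medians, the solid line is 0 and the dotted line the median of all genes, -0.05. Cholangiocyte markers have the highest median (0.73) and female-biased genes the lowest (-0.86) of the 18 lists drawn, and all 19 cholesterol synthesis genes lie left of 0.

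Small nucleolar and Cajal body RNAs, which guide the modification of ribosomal and spliceosomal RNA, stood out as a group picked after their values were seen. Of 54 measured, 40 passed the level, and all 40 had a positive non-additivity. At least 2-fold above additivity were 18 of them, beside 1.77% of all genes kept. The median of the 40 was 0.94, and 0.38 between double and MDR2 knockout, without the GHR knockout pool. Their median intensity was 436.5 in wildtype, 250 in MDR2 knockout, 240.5 in GHR knockout and 310.5 in double knockout liver, and wildtype was the highest pool for 33. Snord118 was 497, 112, 183 and 130 (1.66), Snord82 was 1602, 861, 635 and 1034 (1.60) and Snora74a was 571, 287, 405 and 539 (1.40). Of the 40, 30 were at least 1.5-fold above and 0 at least 1.5-fold below additivity, while 88.0% of all genes kept were within 1.5-fold.

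**Figure D5:**
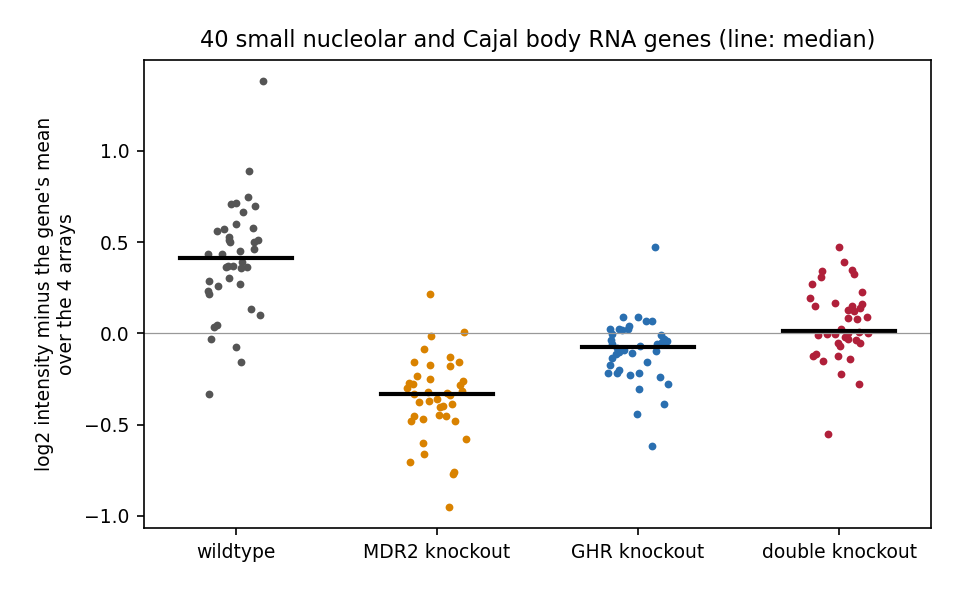
Points are 40 small nucleolar and Cajal body RNA genes in each of the 4 pools, given as log2 intensity minus the gene's mean over the 4 arrays, with the median as a black line. The medians are 0.41 in wildtype, -0.33 in MDR2 knockout, -0.07 in GHR knockout and 0.02 in double knockout.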

How the data were processed

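Whole-liver RNA of 4 genotypes was measured on 1 Affymetrix array each, a pool of 3 livers. The deposited table gives intensity values made with RMA in Affymetrix Expression Console 1.1, per the submitters' processing notes. They are whole numbers from 6 to 22355, a linear intensity scale, so log2 was taken here, with the authors' normalization kept. Annotation gave 21789 of 35556 rows 1 gene symbol, 1621 several and 12146 none. Rows with 1 symbol were used, and the row with the highest mean served the 999 genes with several rows. Per identifier 21698 rows matched RefSeq (GRCm38.p6). The calculation was tested on simulated data.

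Named genes were the 15 highest and 15 lowest with all arrays at 100, the 8 highest and 8 lowest of the others, up to 5 per list and 4 per class by size, and a fixed set of GHR, bile acid, duct and matrix genes. Predicted loci were left out of the ranks. Members, lists and classes were chosen with earlier results of these data known. Alternatives used limma 3.58.1 (cyclic loess), R 4.3.3, Python 3.11.15 and pandas 2.3.3. Array number, 1 per genotype, limits the precision.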

Additional observations from a re-analysis of the deposited data

Results flagged for a closer look

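In 10 of the named genes with all 4 arrays at 100 the difference with GHR loss had one sign with MDR2 intact and the opposite sign without it, by at least 1.5-fold each way. The difference between the backgrounds was not tested, since each rests on 1 array per genotype. Below additivity were Cyp2b10 at -3.25, Cyp26a1 at -2.94, Nr1d1 at -1.99, Lipg, endothelial lipase, at -1.54 and Lrat at -1.23. Above it were Fkbp5 at 1.89, Snord47 at 1.84, Zbtb16 at 1.80, Sox9 at 1.66 and Snord87 at 1.48. Lipg was 152 in wildtype, 191 in MDR2 knockout, 262 in GHR knockout and 113 in double knockout liver. Snord47 was 376, 166, 171 and 271 and Snord87 was 357, 114, 196 and 174 in the same order, each highest in wildtype.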

How the results depend on the processing

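Of the counts of genes above and below additivity (191 and 206), most alternatives stayed within 1.5-fold: no level filter gave 223 and 224, cyclic loess 199 and 204, centring on the genes passing the level 201 and 184, centring on hepatocyte markers 207 and 178, averaging a gene's rows 189 and 206, and leaving out the sex lists 184 and 183. More genes lay above than below under both centrings and without the sex lists, against more below as reported. On the linear scale 190 and 200 kept their sign, and 7 named genes turned: Ces3b, Sult2a8, Igfals, Cyp4a12b, C8a, Hamp2 and Alas2. The count above moved by more than 1.5-fold with the choice of level, fold or offset, and the count below only with the fold. A highest array at or above the 75th percentile of 329 gave 89 above and 164 below, and all arrays at 100 gave 67 and 146. A 1.5-fold threshold gave 569 and 722 and a 3-fold one 53 and 71. Adding 50 before log2 gave 95 above and 141 below, all among the genes of the reported counts, and it took 26 named genes under 2-fold, among them Acta2, Krt7, Cldn4, Ankrd1, Ccl20, Skil, Jag1, Vcan, Saa1 and Zbp1. Centring on hepatocyte markers took Acacb, Ifit3, Mvk, Sod3 and Tm7sf2 under 2-fold. No named gene turned its direction under cyclic loess, the centrings, averaged rows or the offset. Over members passing the level, the median of neutrophils went from -0.31 to 0.02 and that of other tissues from -0.07 to 0.21. The other list medians that turned sign, those of collagens, the EGF receptor family, hepcidins, antioxidant genes and the Notch list, are given above. No paired analysis was possible because each genotype has 1 array and no replicate number. For the same reason no array could be left out. The lowest of 10 intensity bins holds the most departures, and rounding to whole numbers makes its log2 differences coarse.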

Other observations

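Rows that no single gene symbol names held departures as well. Of 827 rows with several symbols that reached 100 on an array, 18 were at least 2-fold above additivity and 30 below. Of 4118 rows with no symbol 210 were above and 119 below. Those transcripts are unnamed here and were given no description.

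Among predicted loci, which were left out of the ranks, Gm21286 had the most negative value and was singled out after its values were seen. It was 3238 in wildtype, 2033 in MDR2 knockout, 2057 in GHR knockout and 35 in double knockout liver, a non-additivity of -5.21.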
